A study of Mus musculus with 20 samples.

Results

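The mitochondrial chromosome of the mouse encodes 13 proteins, all of them subunits of the respiratory chain or of ATP synthase, and 10 of these genes are described here: mt-Nd1, mt-Nd2, mt-Nd4, mt-Nd5 and mt-Nd6 of complex I, mt-Cytb of complex III, mt-Co1, mt-Co2 and mt-Co3 of complex IV, and mt-Atp6 of ATP synthase. They were picked by name among the 37 genes of that chromosome in a table of 55401 genes, with earlier results of these data known. The table gives read counts per gene for 20 libraries of polyA RNA from mouse eWAT, the usual short form for epididymal white adipose tissue, the fat pad beside the epididymis. In 10 libraries the diet was random food restriction, which joins intermittent fasting with calorie restriction of 5%, and in 10 it was the control diet. A label for contamination with spermatocytes, germ cells in meiosis, is set to Yes in 3 of the 10 restricted and 7 of the 10 control libraries. The labels give no strain, age, genotype or length of feeding, and do not say whether each library came from its own animal, so p-values measure only how these libraries vary, which may be technical.

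Each mitochondrion holds many copies of a small circular DNA. In mammals, both strands are transcribed into long RNAs that span many genes, and the tRNAs that lie between the genes are cut out to free the mRNAs and rRNAs. Levels of the single mRNAs then depend on transcription, on processing and on decay, and the proteins join nuclear-encoded subunits to form complexes I, III, IV and ATP synthase, while complex II is encoded in the nucleus alone. White adipocytes hold fewer mitochondria than brown adipocytes, which use the chain to make heat.

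Of the 10 genes, 7 had at least 10044 counts in each library and 3 had almost none. mt-Co2 had 0 to 4 counts in restricted and 0 to 6 in control libraries, mt-Atp6 had 0 to 3 in each group, and mt-Co3 had 0 to 4 in each group. Over all 20 libraries they summed to 49, 16 and 28 counts, beside 4810133 counts of mt-Co1, the catalytic subunit of the same complex as mt-Co2 and mt-Co3. These 3 genes are spelled almost letter for letter in the nuclear genome. A stretch of chromosome 1 (GRCm38) carries copies annotated as Gm28661, Gm10925 and Gm28437 in GENCODE vM21, which align over 681, 678 and 783 bases with 0 differing bases. The first 60 bases of each gene and the matching bases of its copy are shown to let this identity be read. They come from GENCODE vM21 transcripts, with mt-Co2 at chrM:7013-7072 and Gm28661 at chr1:24615506-24615565, mt-Atp6 at chrM:7927-7986 and Gm10925 at chr1:24614592-24614651, and mt-Co3 at chrM:8607-8666 and Gm28437 at chr1:24613912-24613971. The mitochondrial genes lie on the plus strand and the copies on the minus strand. Capitals would mark differing bases, and these pairs have none.
mt-Co2: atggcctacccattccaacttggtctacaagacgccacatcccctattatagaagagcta
Gm28661: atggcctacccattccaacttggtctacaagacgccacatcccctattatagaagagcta
mt-Atp6: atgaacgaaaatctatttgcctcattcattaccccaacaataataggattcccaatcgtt
Gm10925: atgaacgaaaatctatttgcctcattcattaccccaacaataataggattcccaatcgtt
mt-Co3: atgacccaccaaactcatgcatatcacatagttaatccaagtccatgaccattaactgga
Gm28437: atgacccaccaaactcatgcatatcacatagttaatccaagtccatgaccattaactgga

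The reads were 52 bases long, so each gene was split into all its windows of 52 bases, and each window was looked up in the annotated nuclear transcripts on both strands. Of the windows, 100% of mt-Co2, 99.5% of mt-Atp6 and 99.9% of mt-Co3 also occurred in a nuclear transcript. The share was 62.2% for mt-Nd4, 50.1% for mt-Co1, 7.90% for mt-Nd2 and 6.82% for mt-Nd5, and 0% for mt-Nd1, mt-Nd6 and mt-Cytb. A copy of mt-Nd5, Gm4076 on chromosome 13, shows what a diverged copy looks like: 46 of its 954 aligned bases differ. In the pair of windows printed next, mt-Nd5 at chrM:12447-12506 on the plus strand and Gm4076 at chr13:85127455-85127514 on the minus strand, the capital marks the 1 base that differs.
mt-Nd5: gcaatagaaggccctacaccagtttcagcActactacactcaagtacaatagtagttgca
Gm4076: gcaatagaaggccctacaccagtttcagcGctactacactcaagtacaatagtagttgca

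The nuclear copies themselves had few counts. Gm28661 had 42 to 251 counts in restricted and 15 to 226 in control libraries, Gm10925 had 31 to 252 in restricted and 14 to 167 in control libraries, and Gm28437 had 26 to 215 in restricted and 6 to 148 in control libraries. When the counts of the copies were added to those of their mitochondrial gene, the difference of restricted over control libraries was 0.10 ± 0.395 (log2, SE) for mt-Co2, 0.23 ± 0.409 for mt-Atp6 and 0.17 ± 0.454 for mt-Co3, with adjusted p = 0.900, 0.757 and 0.848 by edgeR. Over the 20 libraries, mt-Co2 had 49 counts beside 2329 of Gm28661, and mt-Atp6 had 16 beside 1707 of Gm10925. For mt-Co3 there were 28 counts beside 1535 of Gm28437. The summed values are thus mostly counts assigned to the copies, and whether those reads came from the mitochondrial genes was not tested. How the authors counted reads that match several places is not given in the sources used here. Its part in the low counts of the 3 genes was not tested. Among the 3 mitochondrial protein genes outside the 10, mt-Nd4l (98.8% of windows shared) had 4 counts in all and mt-Nd3 (98.0%) had 889. mt-Atp8 had 2 counts, and no annotated nuclear transcript shares a window with it. Only annotated transcripts were searched, so a copy outside them would have been missed. On chromosome 1, the bases between the end of Gm10925 (24614651) and the start of Gm28661 (24614885) were not compared with mt-Atp8. The 3 genes near 0 did not pass the filter on low counts, and what follows on diet is about the 7 that did.

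**Figure D1:**
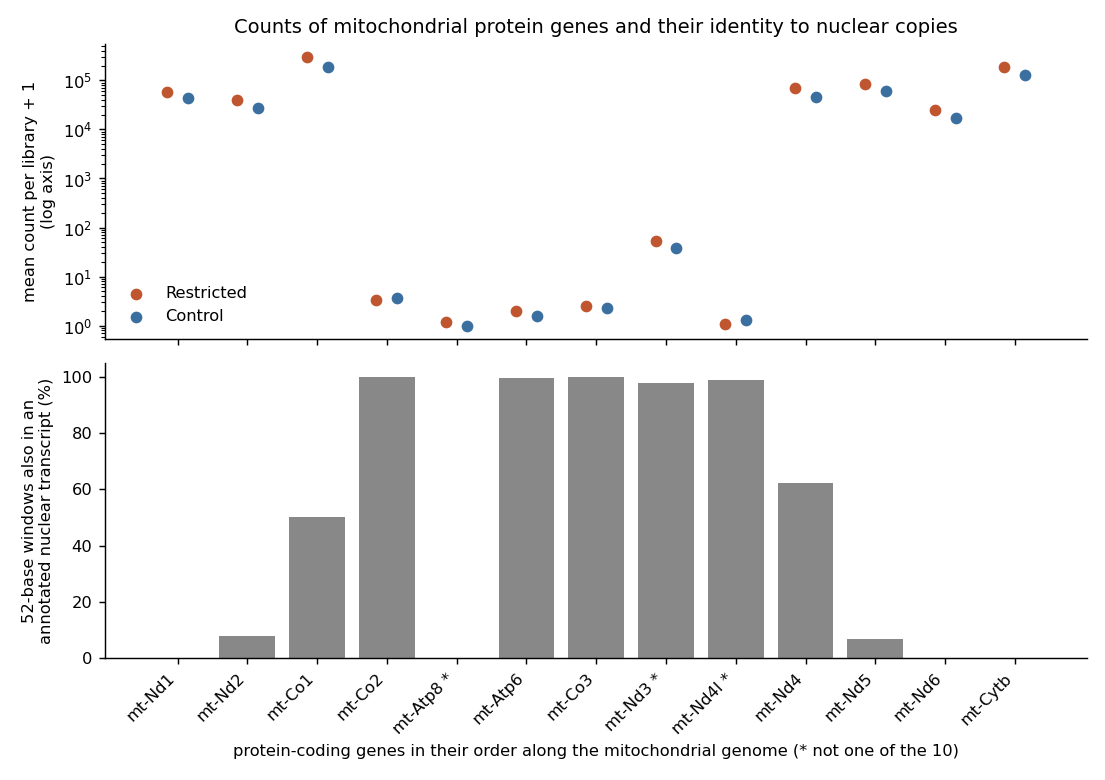
Upper panel, mean count per library plus 1, on a log axis, of the 13 mitochondrial protein genes in their order along the chromosome, with restricted left of control; lower panel, the percentage of 52-base windows of each gene that also occur in an annotated nuclear transcript. mt-Co2, mt-Atp6 and mt-Co3 had 0 to 6 counts per library and share 99.5% to 100% of their windows. mt-Atp8 had at most 1 count in a library, with 0% shared, and sequence outside annotated transcripts was not searched.

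Libraries held 14306528 to 44061508 counts, and the counting error of the 7 genes with high counts was small beside the spread between libraries. White adipocyte markers (Adipoq, Plin1, Fabp4 and 6 others) summed to 36175 to 42631 CPM, counts relative to the depth of the library, in restricted and 33467 to 38888 in control libraries. The extraction text names QUAD in place of eWAT. Restricted library 1 and control libraries 1 to 5 held the most skeletal muscle transcripts, with 12 muscle markers summing to 1018 to 3585 CPM against at most 107 CPM in the other 14 libraries. Male germ cell markers summed to 4.48 to 117 CPM in restricted and 2.94 to 30.4 CPM in control libraries marked Yes for contamination, and to 3.24 to 6.42 CPM in restricted and 3.29 to 40.1 CPM in control libraries marked No. The label thus does not follow the sum of these markers closely. Control library 6, marked No, had 40.1 CPM of them and 73.8 CPM of epididymis markers. In 4 libraries marked Yes (restricted 3 and control 4, 5 and 8) the germ cell markers had at most 4.52 CPM. These 12 markers stand for male germ cells in general and not for spermatocytes alone, so they do not test the label itself. Epididymis markers reached 345 CPM in control library 1 and at most 4.84 CPM in a restricted library. Macrophage markers were lower with restriction (675.6 to 1235 CPM in restricted, 1150.4 to 1625 CPM in control libraries). In the diet fit given below, 7 of 8 were called lower, beside 7.29% of all genes. Of the 9 white adipocyte markers, 2 were called higher, beside 6.31% of all genes. In bulk tissue, fewer cells of a type and less RNA per cell cannot be told apart, and neither can more mitochondria per cell and more RNA per mitochondrion.

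The 10 genes took a larger share of all counts in restricted libraries. Their share was 2.18% at the lowest, 2.96% at the median and 3.77% at the highest in restricted libraries, and 1.76%, 2.05% and 2.72% in control libraries (mean 2.96% ± 0.508 in restricted and 2.12% ± 0.312 in control, SD, n = 10 each). The ranges overlap: restricted libraries 2 and 3, at 2.18% and 2.30%, fell within the control range, as did library 9 at 2.67%. Each of the 7 genes that could be tested was higher with restriction, by 1.33-fold to 1.55-fold, by the quasi-likelihood test of edgeR, fitted with the contamination label as a further term, at an adjusted p below 0.05 over 15986 genes. Over all tested genes, 6.31% were called higher and 13.6% were called in either direction, and the median log2 difference was 0.01, against 0.55 over the 7. The 7 lie on the same DNA, and all but mt-Nd6 share long precursor RNAs, so they are not 7 independent results. In the following, a level is in CPM scaled to the tested genes, a difference is log2 restricted over control ± SE, and positions are on the mitochondrial chromosome of GRCm38.

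Complex I takes electrons from NADH, and its membrane arm holds all the mitochondrially encoded subunits. mt-Nd1 (ENSMUSG00000064341.1, chrM:2751-3707, plus strand), a core subunit near the site where the membrane arm meets the quinone, had 1621, 2241 and 3039 CPM (lowest, median, highest) in restricted and 1448, 1689 and 2429 CPM in control libraries. Only 4 restricted libraries lay above all controls, and the difference was 0.41 ± 0.134 (adjusted p = 0.0457, edgeR). mt-Nd2 (ENSMUSG00000064345.1, chrM:3914-4951, plus strand), one of the proton-pumping subunits, had 1000.02, 1633 and 2302 CPM in restricted and 868, 1051 and 1500.2 CPM in control libraries. For mt-Nd2, 6 restricted libraries exceeded all controls, and the difference was 0.55 ± 0.151 (adjusted p = 0.0187, edgeR).

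mt-Nd4 (ENSMUSG00000064363.1, chrM:10167-11544, plus strand), another of the pumping subunits, had 2068, 2769 and 3615 CPM in restricted and 1568, 1800.0 and 2345 CPM in control libraries. Of the restricted libraries, 8 lay above all controls, and the difference was 0.59 ± 0.118 (adjusted p = 0.00224, edgeR), the smallest adjusted p of the 7. mt-Nd5 (ENSMUSG00000064367.1, chrM:11742-13565, plus strand), the pumping subunit at the far end of the arm, had 2565, 3451 and 4195 CPM in restricted and 1911, 2387 and 2982 CPM in control libraries, with 7 restricted libraries above all controls. Its difference was 0.47 ± 0.115 (adjusted p = 0.00932, edgeR).

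mt-Nd6 (ENSMUSG00000064368.1, chrM:13552-14070, minus strand) is the only protein gene on the opposite strand to the rest, and its mRNA is known to lack a poly(A) tail in human cells. It had 739, 1038 and 1305 CPM in restricted and 553, 681 and 920.4 CPM in control libraries, with 7 restricted libraries above all controls. The difference was 0.56 ± 0.120 (adjusted p = 0.00360, edgeR). Its last 14 bases overlap the end of mt-Nd5 on the other strand, and since the strand setting of the counting is not given, reads of the overlap and antisense reads over either gene cannot be told apart. For each mt-Nd5 count there were 0.302 ± 0.0269 mt-Nd6 counts in restricted and 0.287 ± 0.0260 in control libraries (SD, n = 10 each), and those ranges overlap (0.256 to 0.347 in restricted, 0.238 to 0.322 in control).

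mt-Cytb (ENSMUSG00000064370.1, chrM:14145-15288, plus strand) encodes cytochrome b, the haem protein of complex III that oxidises quinol. It had 4794, 7576 and 9782 CPM in restricted and 4281, 4997 and 6386 CPM in control libraries. Of the restricted libraries, 8 lay above all controls, and the difference was 0.55 ± 0.134 (adjusted p = 0.00964, edgeR).

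mt-Co1 (ENSMUSG00000064351.1, chrM:5328-6872, plus strand) encodes the subunit of complex IV that reduces oxygen. It was the most abundant of the genes and had the largest difference among the 7. Levels were 8161, 12074 and 14873 CPM in restricted and 6170.4, 7243 and 9753 CPM in control libraries, and 8 restricted libraries lay above all controls. The difference was 0.63 ± 0.133 (adjusted p = 0.00341, edgeR). No test of their own counts could be had for mt-Co2, mt-Co3 and mt-Atp6. mt-Co2 (ENSMUSG00000064354.1, chrM:7013-7696) carries the copper centre that accepts electrons from cytochrome c. mt-Co3 (ENSMUSG00000064358.1, chrM:8607-9390) is a core subunit of complex IV without a redox centre. mt-Atp6 (ENSMUSG00000064357.1, chrM:7927-8607) is the proton channel subunit of ATP synthase. Restricted libraries 2 and 3 lay within the control range for each of the 7 measured genes.

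**Figure D2:**
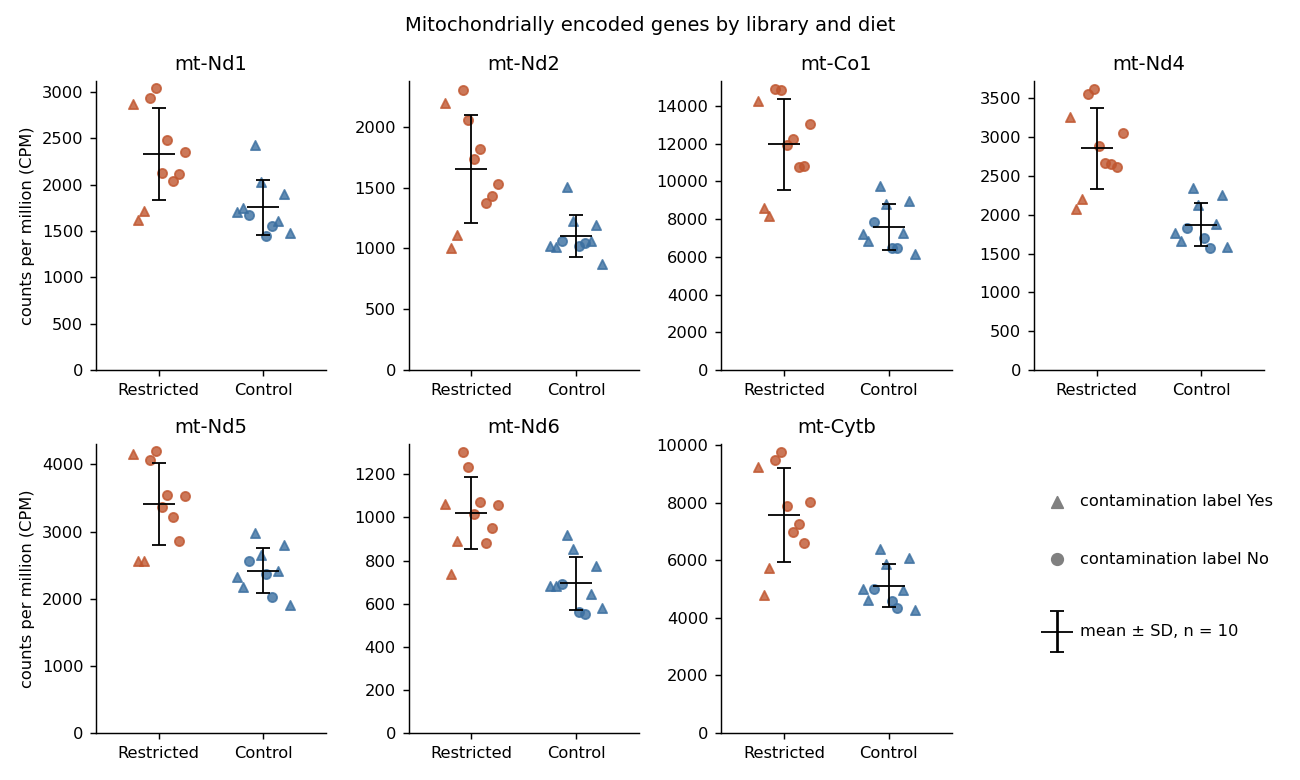
CPM per library of the 7 measured genes, 1 panel per gene on linear axes from 0, with restricted libraries left of control libraries, triangles for the contamination label Yes and circles for No, and the mean ± SD of each group. In every panel the restricted mean is the higher, and restricted libraries 2 and 3 lie within the control range.

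The calls of mt-Nd1 and mt-Nd2 rested on single libraries. mt-Nd1 was no longer called when any of 12 single libraries was left out (adjusted p up to 0.158, without restricted library 1). These were restricted libraries 1, 4, 5, 7 and 10 and control libraries 1, 2, 3, 6, 7, 8 and 10. For mt-Nd2 the call was lost without restricted library 1 (adjusted p = 0.102), control library 6 (0.0528) or control library 7 (0.0526). mt-Co1, mt-Nd4, mt-Nd5, mt-Nd6 and mt-Cytb kept theirs whichever library was left out (edgeR in each fit). The call of mt-Nd1 was also lost without the filter on low counts (adjusted p = 0.0795, beside 1.68% of all genes called higher), with the set of replicate numbers, 1 to 5 or 6 to 10, as a term (0.0755, beside 5.17%), with 1 surrogate variable (0.0544, beside 5.83%) and in limma-voom (0.0831, beside 6.37%). All 7 were called with RLE factors (beside 6.97%), upper-quartile factors (6.03%), nuclear genes for the scaling (6.49%), a filter at 50 counts (8.59%), no label term (8.32%) and DESeq2 (8.36%).

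Levels scaled to gene length put mt-Co1 and mt-Cytb well above the complex I genes. Over the 20 libraries, mt-Co1 averaged 6321 CPM per kilobase, mt-Cytb 5550, mt-Nd1 2136, mt-Nd4 1714, mt-Nd6 1653, mt-Nd5 1597 and mt-Nd2 1327. mt-Co1 lay above mt-Cytb, mt-Cytb above mt-Nd1, mt-Nd1 above mt-Nd4 and mt-Nd5 above mt-Nd2 in all 20 libraries. The neighbours mt-Nd4 and mt-Nd6, and mt-Nd6 and mt-Nd5, kept their order in 13 of 20 libraries each and both together in 7, so these 3 cannot be ordered from these levels. Counted against the windows that no nuclear transcript shares, mt-Nd4 moves to the third place, with 4704 CPM per 1000 unshared windows. On this measure mt-Nd1 stands at 2256, mt-Cytb at 5809 and mt-Co1 at 13109, so mt-Nd4 lies nearer to mt-Cytb. The measure takes shared windows to have given no counts, which was not tested.

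The 7 genes moved together from library to library. After the means of diet and label were removed, the Pearson correlation of log2 CPM between pairs of them ran from 0.862 to 0.982 with a median of 0.925 (21 pairs over 20 libraries, which share scaling and depth). Within the counts of the 7, mt-Nd1 made up 7.56% ± 0.346 in restricted and 8.55% ± 0.512 in control libraries (ranges 6.89% to 8.06% in restricted and 7.93% to 9.35% in control). mt-Co1 made up 38.8% ± 1.11 in restricted and 36.9% ± 0.589 in control libraries, and mt-Cytb made up 24.6% ± 1.16 in restricted and 24.9% ± 0.4664 in control libraries (SD, n = 10 each). These proportions were not tested. The nuclear genes most like the mean of the 7 over the 20 libraries, by the same correlation among 14282 genes, were Etfrf1 (0.917), Emc7 (0.914), Mospd1 (0.892), Skp1a (0.889), Tmem126a (0.882) and C330018D20Rik (0.877).

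Contamination label and diet are partly confounded, so the diets were also compared within each label, although the summed male germ cell markers do not follow it closely. Among libraries marked No, the 10 genes took 2.67% to 3.77% of counts in 7 restricted libraries and 1.77% to 2.09% in 3 control libraries, with no overlap. All 7 measured genes were called higher there, with log2 differences of 0.62 to 0.87 and adjusted p of 0.00944 to 0.0271 (edgeR), beside 0.784% of all genes called higher. Among libraries marked Yes, the shares were 2.18% to 3.23% in 3 restricted and 1.76% to 2.72% in 7 control libraries, and none of the 7 was called (log2 differences 0.18 to 0.41, adjusted p 0.250 to 0.642, edgeR, with 1 of 7 at an unadjusted p below 0.05), beside 0.404% of all genes. The difference between these differences, tested as the product of label and diet, was -0.54 to -0.28 (Yes minus No) with adjusted p of at least 0.859 for each of the 7 genes by edgeR. At an unadjusted p below 0.05 it held for 2 of them, mt-Nd4 and mt-Nd6, and for 871 of 15986 genes, and 0% of genes were called. Its size rested on single libraries: it was -0.85 to -0.56 with 7 of 7 at an unadjusted p below 0.05 without restricted library 1 (lowest adjusted p = 0.368, edgeR), and -0.42 to -0.16 with 0 of 7 without restricted library 2. The label itself was associated with none of the 7 at fixed diet (log2 Yes minus No -0.09 to 0.01, adjusted p of at least 0.875, edgeR, 0 of 7 at an unadjusted p below 0.05), beside 5.3% of all genes called in either direction and 5.04% called higher.

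The 6 libraries high in muscle transcripts were mostly controls. Without them, mt-Co1 averaged 11691 ± 2390 CPM in 9 restricted and 7075 ± 1118 CPM in 5 control libraries (SD), and mt-Nd6 averaged 1017 ± 176 CPM in restricted and 623 ± 92.1 CPM in control libraries. In these 14 libraries 3 of the 7 genes were called, beside 2.39% of all genes called higher: mt-Nd6 at 0.66 (adjusted p = 0.0133), mt-Co1 at 0.61 (adjusted p = 0.0370) and mt-Nd4 at 0.56 (adjusted p = 0.0384, all by edgeR). The other 4 had adjusted p of up to 0.137, and all 7 had an unadjusted p below 0.05. With a muscle marker index as a further term in the fit of all 20 libraries, all 7 were called, at 0.46 to 0.67, beside 6.16% of all genes called higher. Split by replicate number, the 10 genes took 2.18% to 3.77% of counts in restricted and 2.01% to 2.72% in control libraries numbered 1 to 5, where none of the 7 was called (adjusted p 0.137 to 0.473, edgeR, 5 of 7 at an unadjusted p below 0.05), beside 0.761% of all genes. In libraries 6 to 10 the shares were 2.67% to 3.14% in restricted and 1.76% to 2.42% in control libraries without overlap, and mt-Co1, mt-Nd4, mt-Nd6 and mt-Cytb were called, beside 0.412% of all genes.

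Some markers of brown adipocytes also differed with diet. The 9 markers summed to 47.1 to 123 CPM in restricted and 29.2 to 46.2 CPM in control libraries. Of the 4 that passed the filter, 3 were called higher, beside 6.31% of all genes: Cidea, a lipid droplet protein, by 1.63, Kcnk3, a potassium channel, by 1.13 and Cox8b, a subunit of complex IV, by 1.05 (log2; adjusted p = 0.00491, 0.000360 and 0.00876, edgeR). Ucp1, the uncoupling protein that defines brown fat, had at most 3 counts and was at 0 in 12 libraries, and Zic1 was at 0 in 15. Cox7a1, another subunit of complex IV, differed by 0.35 (adjusted p = 0.340, edgeR), and Dio2, which activates thyroid hormone, had a median of 0.324 CPM in restricted and 0.444 CPM in control libraries and did not pass the filter. With an index of these markers as a further term, 2 of the 7 mitochondrial genes were called (mt-Nd4 at 0.45, adjusted p = 0.0495, and mt-Nd6 at 0.47, adjusted p = 0.0494, edgeR), beside 2.77% of all genes, and the differences of the 7 ran from 0.22 to 0.47. The index is itself higher with restriction, and the part of these cells in the result was not tested.

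**Figure D3:**
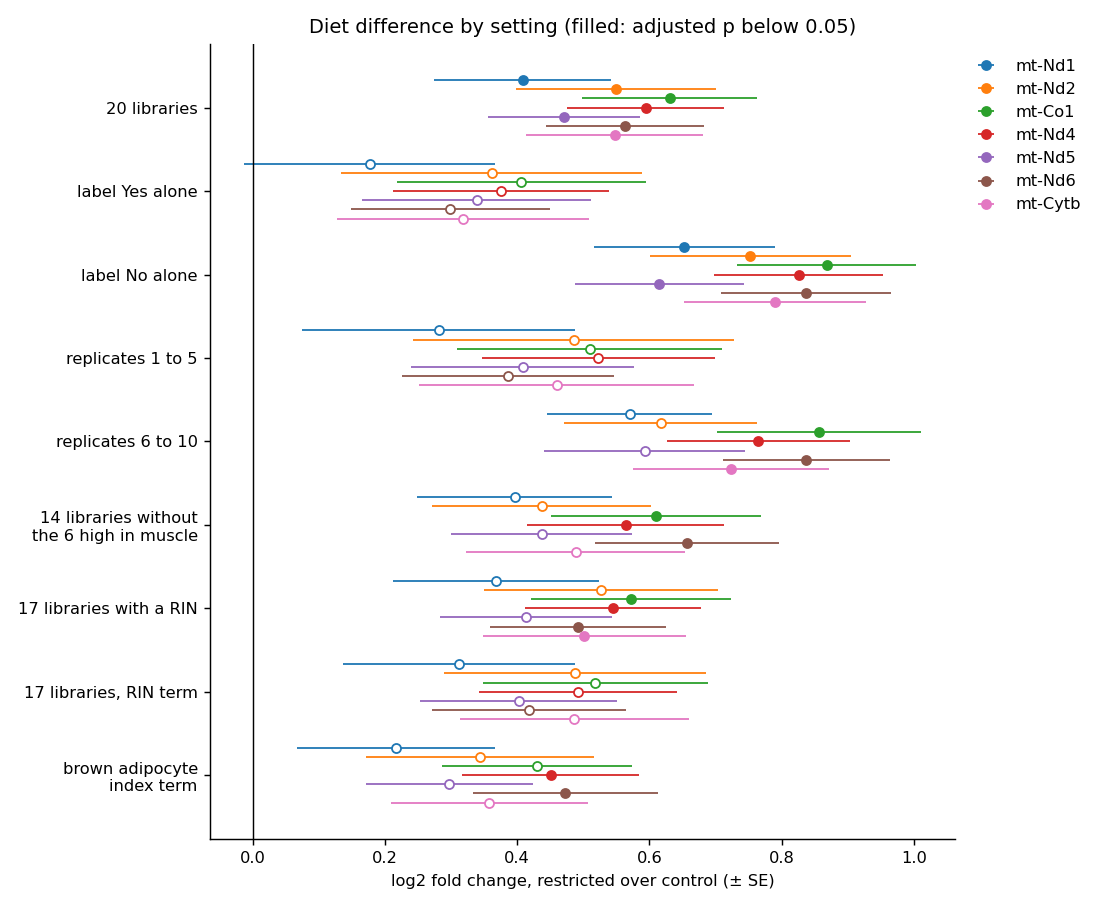
Log2 difference, restricted over control, of the 7 measured genes in 9 fits or subsets of libraries, 1 block of rows per fit and 1 point with its SE per gene, filled where the adjusted p is below 0.05. All points lie right of 0, and there are no filled points for the RNA integrity term, for libraries marked Yes and for libraries numbered 1 to 5.

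RNA integrity, given as the RIN, for which a higher value means less degraded RNA, was 6.5 to 7.9 in 8 restricted libraries (7.18 ± 0.399, SD) and 7.1 to 7.9 in 9 control libraries (7.41 ± 0.267, SD), and 3 libraries had none. At equal RIN the shares of counts on the 10 genes can be set side by side. At 7.1, restricted library 4, marked No for contamination, had 3.77%. Control libraries 4 and 5, marked Yes and high in muscle transcripts, had 2.72% and 2.43%. At 7.3, restricted library 3 had 2.30%, and control libraries 8, 9 and 10 had 1.999%, 2.42% and 1.76%. At 7.9, restricted library 8 had 2.77% and control library 3, high in muscle transcripts, had 2.09%, and both were marked No. The restricted library with the lowest RIN, 6.5, had the lowest share of its group.

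Fitted over the 17 libraries with a RIN at fixed diet and label, the slope was -0.23 to -0.03 (log2 per RIN unit) over the 7 genes, for example -0.23 ± 0.214 for mt-Nd6 and -0.17 ± 0.248 for mt-Co1. Here too single libraries moved the values: the slopes were -0.51 to -0.24 without restricted library 2, the one with the lowest RIN, and -0.51 to -0.29 without restricted library 1. None of the 7 slopes was called (adjusted p = 0.999 for each, edgeR, 0 of 7 at an unadjusted p below 0.05), and 0% of 16173 genes were called, with 498 at an unadjusted p below 0.05. Without restricted library 2, the slope of mt-Nd6 had an unadjusted p of 0.0149 and an adjusted p of 0.991 (edgeR). With the RIN in the model, none of the 7 was called for diet (log2 differences 0.31 to 0.52, adjusted p 0.0886 to 0.364, edgeR, with 6 of 7 at an unadjusted p below 0.05), beside 1.26% of all genes called higher. In the same 17 libraries without the RIN in the model, mt-Co1, mt-Nd4, mt-Nd6 and mt-Cytb were called, 4 of the 7, with differences of 0.37 to 0.57 over the 7, beside 4.17% of all genes.

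**Figure D4:**
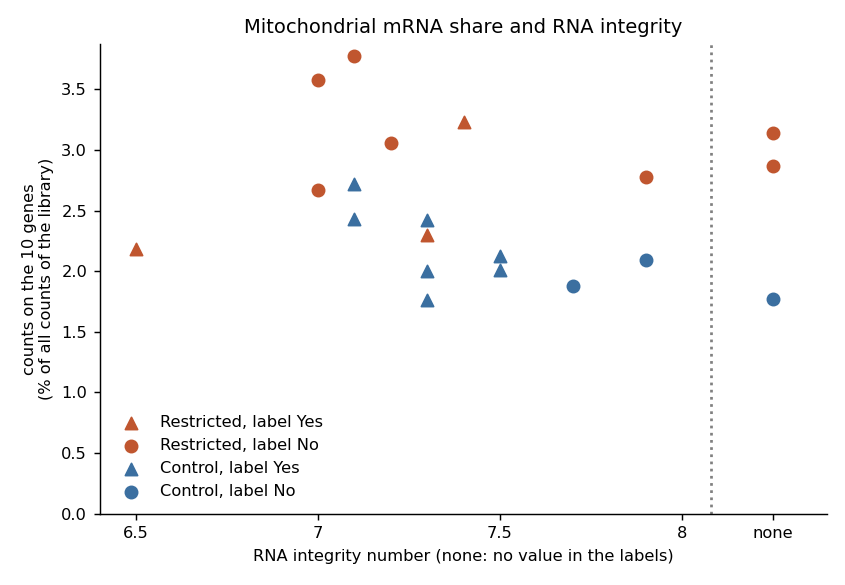
Percentage of all counts on the 10 mitochondrial genes against the RNA integrity number, 1 point per library, restricted and control in separate colours, with the 3 libraries without a RIN at the right. The groups overlap in RIN, and restricted library 4 (3.77%) lies above control libraries 4 and 5 (2.72% and 2.43%) at a RIN of 7.1. Those controls also differ from it in contamination label and in muscle transcripts.

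The 2 mitochondrial rRNAs form the core of the mitochondrial ribosome and carry only short tails of A. Both were called higher too, beside 6.31% of all genes called higher. mt-Rnr1, the small rRNA, averaged 171 ± 32.2 CPM in restricted and 104 ± 24.6 CPM in control libraries (SD, n = 10 each), a difference of 0.77 ± 0.142 (adjusted p = 0.00121, edgeR). mt-Rnr2, the large rRNA, averaged 278 ± 94.4 CPM in restricted and 191 ± 71.9 CPM in control libraries, a difference of 0.75 ± 0.201 (adjusted p = 0.0159, edgeR). Only 2 restricted libraries lay above all controls for mt-Rnr2, against 8 for mt-Rnr1. By label, mt-Rnr2 differed by 0.48 (log2 Yes minus No, adjusted p = 0.268, edgeR). Diet fits of the rRNAs with the RIN as a term or with single libraries left out are not given here. Of 6 other listed RNAs without a poly(A) tail, Rn7sk alone passed the filter, and it differed by 0.40 (adjusted p = 0.767, edgeR). mt-Nd3 of complex I, at 2.20 ± 1.45 CPM in restricted and 1.55 ± 0.429 CPM in control libraries, differed by 0.39 (adjusted p = 0.509, edgeR). Of the 22 tRNAs, 3 passed the filter, mt-Tl1 (0.44), mt-Te (0.55) and mt-Tp (0.35), with adjusted p of 0.313, 0.255 and 0.239.

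Nuclear genes that serve the mitochondrial genome were described by the same fit, in which 6.31% of all genes were called higher. Of 13 genes for replication and upkeep of mitochondrial DNA, none was called, and the median log2 difference was 0.04. Of 10 transcription genes, Mterf2, a member of the termination factor family, was higher at 6.35 ± 1.0002 CPM in restricted and 4.59 ± 0.552 CPM in control libraries (0.48, adjusted p = 0.00657, edgeR). The RNA polymerase of mitochondria, Polrmt, had 30.6 ± 4.44 CPM in restricted and 33.9 ± 4.58 CPM in control libraries (-0.16, adjusted p = 0.264, edgeR). The DNA packaging factor Tfam differed by 0.07 (adjusted p = 0.394) and the transcription factor Tfb2m by 0.21 (adjusted p = 0.0880). Of 22 genes for RNA processing and stability, 2 were higher: Rexo2, an exonuclease for short RNAs (0.28, adjusted p = 0.00822), and Grsf1, an RNA granule protein (0.22, adjusted p = 0.00847). Lrpprc, which stabilises mitochondrial mRNAs, had 56.9 ± 6.22 CPM in restricted and 52.8 ± 3.24 CPM in control libraries (0.12, adjusted p = 0.209, edgeR).

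Of 77 tested proteins of the mitochondrial ribosome, 14 (18.2%) were higher and 0 lower, beside 6.31% of all genes called higher, with a median of 0.12 beside 0.01 over all tested genes. Mrpl18 (0.30), Mrpl43 (0.24), Mrps15 (0.27) and Mrpl36 (0.26) had the smallest p. Taco1, which promotes translation of mt-Co1 mRNA, was the only one of 12 translation factors called, at 12.5 ± 1.84 CPM in restricted and 10.8 ± 0.777 CPM in control libraries (0.26, adjusted p = 0.0334, edgeR). Among the nuclear subunits of the same complexes, those called were 3 of 36 of complex I (Ndufb4, Ndufa6 and Ndufa5, at 0.33, 0.22 and 0.21), 2 of 9 of complex III (Uqcrb at 0.30 and Uqcrfs1 at 0.24), 1 of 12 of complex IV (Cox7a2 at 0.29) and 2 of 15 of ATP synthase (Atp5j at 0.21 and Atp5j2 at 0.24), all higher. The shares were 8.33%, 22.2%, 8.33% and 13.3%, so those of complexes I and IV lie near the 6.31% of all genes. The medians of these 4 lists were 0.16, 0.16, 0.20 and 0.10. Complex II, which has no mitochondrially encoded subunit, had 0 of 4 called and a median of 0.14.

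Assembly factors of the chain had 6 of 38 (15.8%) higher, beside 6.31% of all genes, with Nubpl (0.40), which inserts iron-sulphur clusters into complex I, Ndufaf4 (0.38), Tmem70 (0.25) and Lyrm7 (0.40) at the smallest p. Among 20 genes of mitochondrial content, import and dynamics, 4 were higher: Vdac1, the outer membrane channel, at 256 ± 35.9 CPM in restricted and 219 ± 21.2 CPM in control libraries (0.27, adjusted p = 0.0283, edgeR), Phb (0.26), Tomm20 (0.21) and Mfn1 (0.16). Citrate synthase (Cs), a common measure of mitochondrial content, differed by 0.13 (adjusted p = 0.549). Of 16 regulators of mitochondrial biogenesis, 0 were higher and 2 lower, beside 7.29% of all genes called lower. The 2 were Nrip1, a corepressor (-0.32, adjusted p = 0.0362, edgeR), and Gabpb2 (-0.23, adjusted p = 0.0207, edgeR). The coactivator Ppargc1a differed by -0.04 (adjusted p = 0.901, edgeR). None of 10 tested genes of the mitochondrial stress response was called. In the 14 libraries without the 6 high in muscle transcripts, where 2.39% of all genes were called higher, the counts called higher were 2 transcription genes, 1 gene of RNA processing, 1 mitochondrial ribosomal protein, 2 assembly factors (and 1 lower) and 1 gene of content and import. None of the translation factors, the biogenesis regulators or the nuclear subunits of the 5 complexes was called there.

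**Figure D5:**
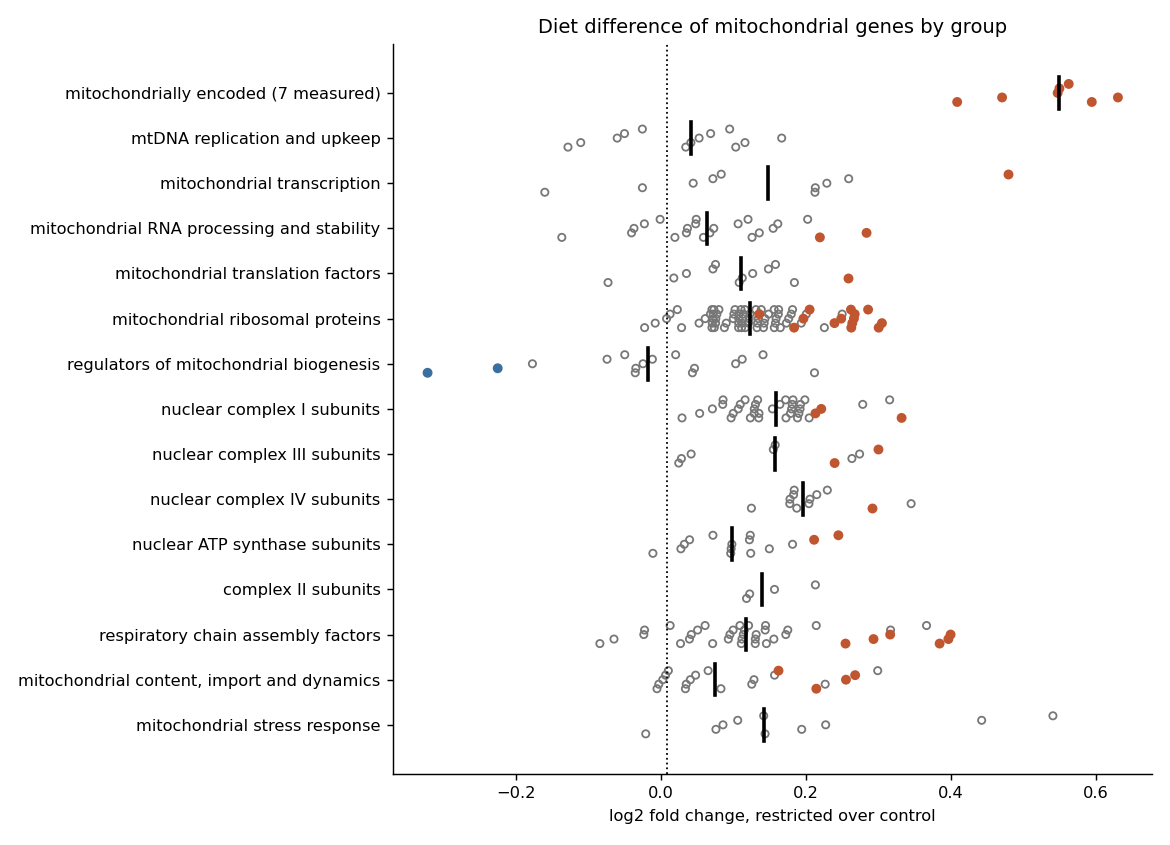
Log2 difference, restricted over control, of each tested gene by group, 1 row per group, with filled points where the adjusted p is below 0.05, a bar at the median of the row and a dotted line at the median of all tested genes (0.01). The 7 mitochondrial mRNAs lie between 0.41 and 0.63, and the medians of the nuclear lists lie between -0.02 and 0.20.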

How the data were processed

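The authors' deposited table holds whole-number read counts per gene for 20 libraries, unscaled as far as its values show. Per the labels' protocols, libraries were made with Tecan's Universal Plus mRNA-seq kit and read as 52-bp paired ends. Per the submitters' processing notes, GRCm38 was the build and bcl2fastq 4.0.3, Salmon and STAR were used, in roles not stated. For the counting, no source used here gives the tool, the strand setting or the treatment of reads that match several places. Of 55401 genes, 55141 had a symbol, and all 37 mitochondrial genes had the coordinates of GENCODE vM21.

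Genes were kept by filterByExpr by diet (minimum count 10), scaled by TMM and fitted by quasi-likelihood in edgeR 4.0.16 (R 4.3.3), with the diet and the contamination label in the model. Tests were two-sided, and genes with a Benjamini-Hochberg p below 0.05 over all tested genes were called. SEs were derived from the log2 fold change and its F. Further fits held the product of label and diet, or the RIN in 17 libraries. CPM values are counts scaled to the tested genes' total times the TMM factor; marker sums use the plain total. The diet fit was also run on counts simulated for 20 libraries. It called 54.8% of genes changed by 0.5 (log2), 81.9% of those changed by 1, and 7 unchanged genes. Alternatives were RLE and upper-quartile factors, scaling by nuclear genes, other filters, DESeq2 1.42.0, limma-voom 3.58.1, sva 3.50.0, further terms, subsets of libraries, a replicate block, nuclear copies added, and leaving out each library. The members, the lists, the 14-library subset and the tests were chosen with earlier results of these data known. Named are all 10 genes, the other genes of the mitochondrial chromosome, up to 4 called genes per list and direction, and the 6 nuclear genes most like the measured members in residual log2 CPM (prior count 2). The nuclear copies, Polrmt, Tfam, Tfb2m, Lrpprc, Ppargc1a, Cs, Rn7sk and the single markers were named after their values were seen. Sequences and shared 52-base windows come from GENCODE vM21 transcripts. Figures used Python 3.11.15 and matplotlib 3.10.9.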

Additional observations from a re-analysis of the deposited data

How the results depend on the processing

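Of all genes, 2173 were called by diet. The count was 392 with the RIN as a term, 1445 in the same 17 libraries without it, 939 with the brown adipocyte index, 400 and 239 in libraries marked No and Yes, 429 and 182 in replicates 1 to 5 and 6 to 10, 927 in 14 libraries, and 1506 to 2274 when each library was left out. Of the 7 measured members, 0 were called with the RIN term, 4 in those 17 libraries without it, 2 with the brown index, 0 in libraries marked Yes, 0 and 4 in replicates 1 to 5 and 6 to 10, 3 in 14 libraries, and 5 to 7 when each library was left out. Apart from the calls lost for mt-Nd1 without the filter on low counts, with the set of replicate numbers as a term, with 1 surrogate variable, in limma-voom and with a replicate block (adjusted p = 0.0795, 0.0755, 0.0544, 0.0831 and 0.0594), all 7 were called under the remaining planned settings, and each diet difference stayed above 0 in every setting run. In a fit with the replicate number as a block, 1388 genes, 514 of them higher, and 6 of the 7 members were called. The labels do not say whether equal numbers pair the libraries, and expression alone cannot settle it. Same-numbered libraries deviated together in 4 of 10 pairs (correlation over 0.1, range -0.639 to 0.581), and 2 of 10 correlated best with their own number.

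Leaving out each library gave 709 to 944 calls by label, 0 to 1 by interaction (1 without control library 3) and 0 to 0 by RIN, which had 1 call with no filter on low counts. The label differences, all near 0 and none called, changed sign: mt-Nd1 was -0.0036 when nuclear genes set the scaling and -0.0108 without the filter, and mt-Nd6 -0.0009 without it. Over left-out libraries they ran from -0.0846 to 0.103 for mt-Nd1, -0.234 to 0.0306 for mt-Nd2, -0.141 to 0.0428 for mt-Co1, -0.0930 to 0.0534 for mt-Nd4, -0.142 to 0.0193 for mt-Nd5, -0.0559 to 0.108 for mt-Nd6 and -0.135 to 0.0727 for mt-Cytb. The RIN slopes, none called, ran from -0.505 to 0.0332 for mt-Nd2, -0.286 to 0.0503 for mt-Nd5, -0.365 to 0.0566 for mt-Cytb, -0.475 to -0.0652 for mt-Nd1, -0.436 to -0.0732 for mt-Co1, -0.425 to -0.0791 for mt-Nd4 and -0.508 to -0.160 for mt-Nd6. The interaction ran from -0.849 to -0.164 over the 7. The cause of these changes was not tested; subsets also hold fewer libraries.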
